A study of Rattus norvegicus with 2 samples.

Results

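The 9 genes described here, Olig1, Olig2, Sox10, Sox8, Nkx2-2, Cspg4, Gpr17, Cnp and Mbp, mark successive steps of the oligodendrocyte lineage. They were chosen by symbol, and all 9 of 9 were measured among the 18166 gene symbols of an expression array. Of the array's 36685 features, 10 belonged to them, because Mbp had 2 features and every other gene had 1. The samples were 2 colonies grown from the rat glioma line C6, called here colony No.4 and colony No.8, with 1 array of total RNA for each. Both colonies were grown in DMEM with 10% serum and both were titled undifferentiated. The labels also attach a treatment to both colonies, CHIR99021 (an inhibitor of the kinase GSK3) at 20 µM with forskolin (an activator of adenylyl cyclase) at 100 µM for 35 days. The labels leave unsettled whether the RNA was taken before or after it. Each group is 1 colony of a tumour cell line, so a value stands for that colony and its culture, and no test or standard error can be computed.

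Oligodendrocytes are the myelinating cells of the central nervous system. Their precursors express the transcription factors Olig1, Olig2, Sox10, Sox8 and Nkx2-2 and carry the proteoglycan NG2 on their surface. Precursors that commit to differentiation pass through a stage marked by the receptor Gpr17. Mature cells then make the myelin proteins encoded by Cnp, Mbp, Mog and Mag. Gliomas often express genes of the precursor stage, among them Olig2 and Pdgfra.

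Levels are the deposited values in log2 units, where 1 unit is a 2-fold step, and a difference is No.8 minus No.4, so that a negative value means a higher level in No.4. The floor was 4.33, the median over both columns of values, and a gene was past it when at least 1 colony reached it. A second guide to background was 5.67, the 99th percentile of 1184 olfactory receptor genes, a family of the nasal epithelium that serves here as a stand-in for silent genes. Where a level lay below one of these limits, it was raised to the limit to give a fold as a bound, called the floor-based fold for 4.33 and the stringent fold for 5.67. The arrays had nearly the same median level, 4.34 in No.4 and 4.31 in No.8. Past the floor were 11069 of the 18166 genes, 10228 of them in both colonies, 309 in No.4 alone and 532 in No.8 alone. Of these 11069 genes, 606 differed by 2-fold or more (5.47%), with 284 higher in No.4 (2.57%) and 322 higher in No.8 (2.91%). With the floor-based fold it was 5.01% of the same genes, and with the stringent fold 4.66% of the 8161 genes that reached 5.67. The median difference of the genes past the floor was 0.04, and the middle part of their differences, from the lower to the upper quartile, ran from -0.22 to 0.30.

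Of the 9 genes, the transcription factor gene Olig2 and the NG2 gene Cspg4 differed by 2-fold between the colonies in the deposited values, and both were higher in colony No.4. Neither reached 2-fold by the stringent fold (at least 1.61 and 1.62) or with an offset of 64 added on the linear scale. The other 3 precursor factors with lower levels in No.8 by more than 0.3, Olig1, Nkx2-2 and Sox10, differed by less than 2-fold. The myelin gene Cnp lay on the other side, slightly higher in No.8, and Sox8 and the brighter Mbp feature differed by less than 0.05. Of the 9 genes, 8 were past the floor, 7 of them in both colonies and Olig2 in No.4 alone, and the 2 at 2-fold stand beside a background of 5.47%. Gpr17 was below the floor in both. Since fewer cells with a transcript and less transcript per cell give the same array signal, these levels cannot tell them apart.

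**Figure D1:**
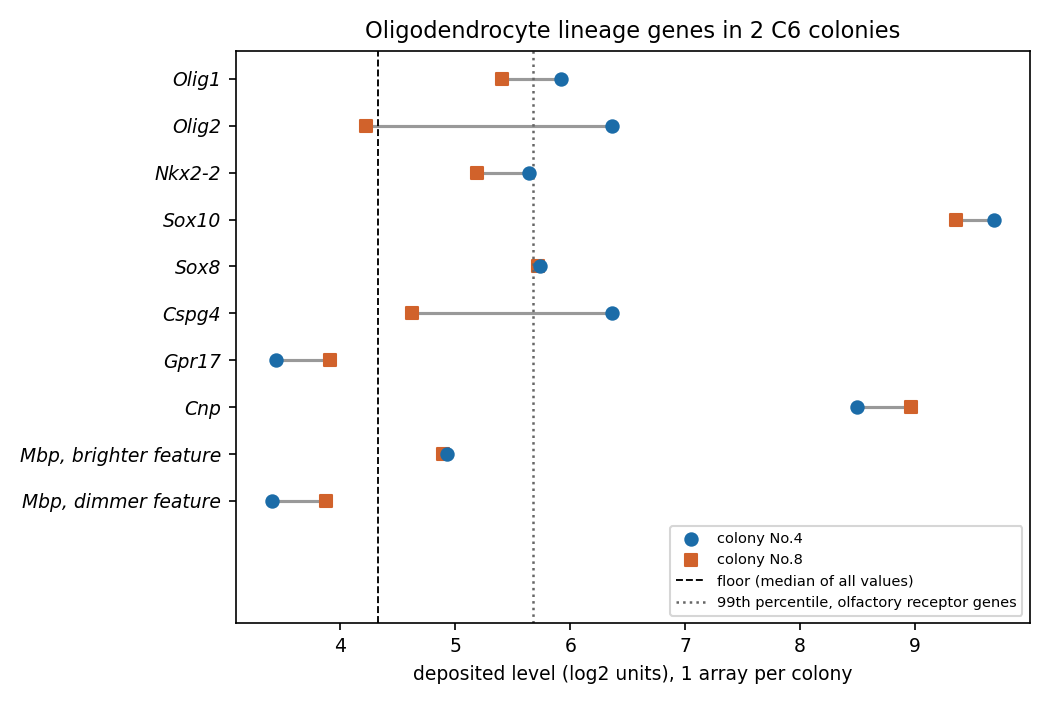
Deposited levels (log2 units, horizontal axis) of the 9 lineage genes, with circles for colony No.4 and squares for colony No.8, 1 array each. The dashed line is the floor of 4.33 and the dotted line is 5.67, the 99th percentile of olfactory receptor genes; Olig2 and Cspg4 span the widest distances, and Sox10 and Cnp lie to the right of both lines in both colonies.

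The promoter sequences of Olig2 and Cspg4 are shown because these genes were 2-fold apart in the same direction. They are the 250 bases before the gene's start in RefSeq (build GRCr8, plus strand for both), with capitals on each GGGCGG (the GC box) and each CCAAT (the CCAAT box), read on either strand, so that CCGCCC and ATTGG are their reverse complements. Olig2 lies at chr11:43961335-43961584 and Cspg4 at chr8:66160692-66160941.
Olig2: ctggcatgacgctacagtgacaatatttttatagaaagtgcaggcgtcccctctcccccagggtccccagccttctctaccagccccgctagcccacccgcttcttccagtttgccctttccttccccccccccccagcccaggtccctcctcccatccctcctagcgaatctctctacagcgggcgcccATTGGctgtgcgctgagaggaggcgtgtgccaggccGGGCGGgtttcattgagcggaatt
Cspg4: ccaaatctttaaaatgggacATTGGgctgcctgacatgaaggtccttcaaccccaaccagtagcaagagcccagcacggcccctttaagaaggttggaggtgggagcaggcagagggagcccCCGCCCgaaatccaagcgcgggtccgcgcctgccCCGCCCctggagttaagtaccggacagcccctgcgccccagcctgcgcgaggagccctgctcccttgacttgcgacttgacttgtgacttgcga
The Olig2 window holds 1 GGGCGG and 1 CCAAT, and the Cspg4 window holds 2 GGGCGG and 1 CCAAT. Over all 33469 promoter windows of this length in the table, 30.5% hold GGGCGG and 34.0% hold CCAAT. Neither window holds CANNTG, the E-box to which basic helix-loop-helix factors such as Olig2 bind (65.5% of all windows), nor ACAAAG (16.3%) or ACAATG (11.1%), which resemble sites of SOX factors. TGACG, a half-site of the cyclic AMP response element, occurs 1 time in the Olig2 window and not in that of Cspg4 (18.2% of all windows), and ATCAAAG, a site of the TCF factors of the Wnt pathway, occurs in neither (3.15%). Each motif was searched on both strands, and a match is a run of letters, not a measured binding site. Both windows are 62.0% G or C, against a median of 51.2%.

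Among the factors that specify the lineage, Olig2 differed most. The level of Olig2, a basic helix-loop-helix factor needed to form oligodendrocyte precursors, was 6.36 in No.4 against 4.22 in No.8, a difference of -2.14. Only No.4 was past the floor, so the floor-based fold, at least 4.09 with No.4 higher, is a bound. The stringent fold was at least 1.61 and no longer reached 2-fold. Having reached the floor only through No.4, Olig2 was bound to show some difference.

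Olig1, the paralogue of Olig2 that promotes maturation of precursors and myelin repair, was at 5.92 in No.4 against 5.40 in No.8. Its difference of -0.52 (1.43-fold) was a size reached by 21.8% of the genes past the floor. Olig1 thus lay above 5.67 in No.4 and below it in No.8. In RefSeq gene order Olig1 and Olig2 are next to each other among the genes measured here, and they shared the direction but not the size of the difference. On their outer sides, Epcip was at 4.75 and 5.13 and the interleukin receptor gene Il10rb at 6.86 and 6.93, both with higher levels in No.8. Of the 16 neighbours of the 9 genes that are not themselves among them, 0 were 2-fold apart, and their differences ran from -0.87 (Zfp516, beside Mbp) to 0.68 (Xrn2, beside Nkx2-2).

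Nkx2-2, a homeodomain factor that promotes oligodendrocyte differentiation, was at 5.64 in No.4 against 5.19 in No.8. The difference of -0.45 (1.37-fold) was matched or passed by 27.1% of the genes past the floor. Both levels were past the floor and under 5.67, so neither stood above the second guide to background.

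Sox10 and Sox8 encode related SOX factors of the same subgroup, and Sox10 is required for terminal differentiation and directly activates myelin genes. Sox10 was at 9.69 in No.4 against 9.36 in No.8, far past both guides in each colony, with a difference of -0.33 (1.26-fold). Among the genes past the floor, 40.9% differed by as much. Sox8 was at 5.74 and 5.72, a difference of -0.02, just above 5.67 in both. Sox10 also marks Schwann cells and other neural crest derivatives, and its level alone does not tell these lineages apart.

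Cspg4, whose product NG2 is the surface proteoglycan used to identify oligodendrocyte precursors and also found on pericytes, was at 6.37 in No.4 against 4.62 in No.8. Both colonies were past the floor, and the difference of -1.74 was 3.35-fold. The stringent fold was at least 1.62, under 2-fold. Of the genes past the floor, 1.31% differed as much, as did 1.77% of the 2317 genes whose brighter level lay within 0.5 of that of Cspg4. Of the pericyte genes, Pdgfrb was at 6.48 and 7.55 and Rgs5 at 4.48 and 4.28. Kcnj8 (3.77 and 3.60) and Des (3.73 and 4.29) were below the floor in both. The 2 neighbours of Cspg4 in gene order, Cimap1c and Snx33, differed by 0.38 and -0.76.

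**Figure D2:**
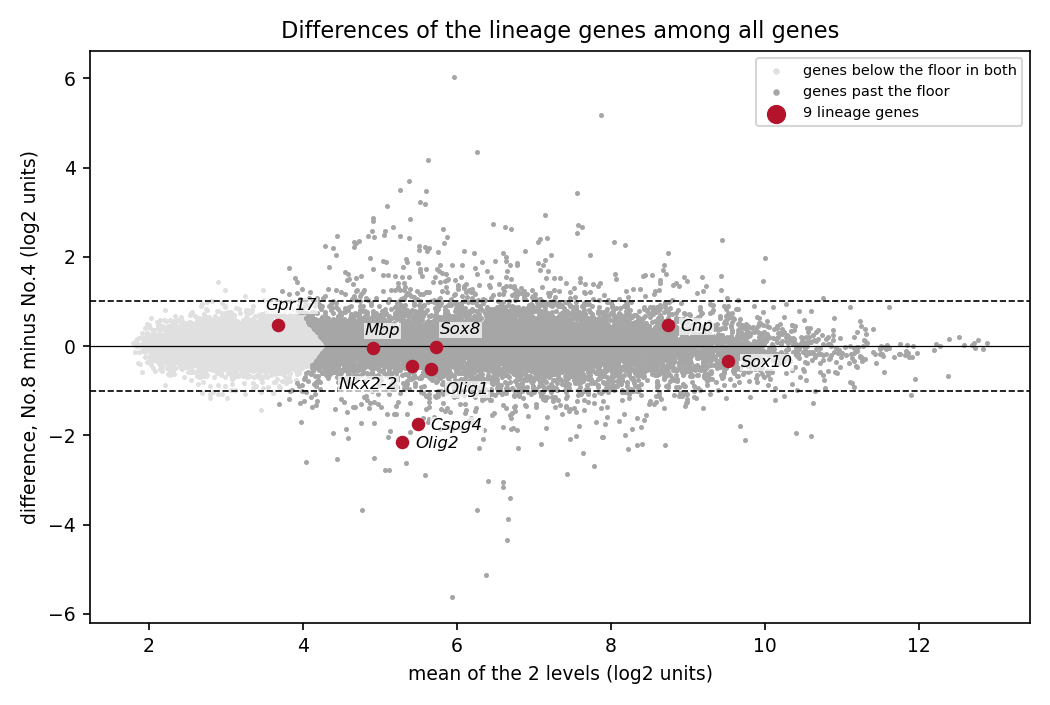
Difference between the colonies (No.8 minus No.4, log2 units, vertical axis) against the mean of the 2 levels (log2 units, horizontal axis) for every gene measured, with the 9 lineage genes in red. Dashed lines mark 2-fold; Olig2 (-2.14) and Cspg4 (-1.74) lie below the lower line and the other 7 lie between the lines.

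Gpr17, a G protein-coupled receptor present for a short time in committed precursors, was at 3.44 in No.4 against 3.91 in No.8. Both levels were below the floor, so its difference of 0.47 has no reading as a fold.

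Of the 2 myelin genes among the 9, Cnp was bright and Mbp dim. Cnp, which encodes the cyclic nucleotide phosphodiesterase of non-compact myelin and is made early in the lineage, was at 8.49 in No.4 against 8.97 in No.8. Its difference of 0.47 (1.39-fold higher in No.8) was reached by 25.3% of the genes past the floor. Mbp encodes myelin basic protein, which holds the layers of compact myelin together. Its brighter feature was at 4.93 and 4.89 (difference -0.04), past the floor and under 5.67 in both colonies. Its dimmer feature was at 3.40 and 3.88, below the floor in both. The difference of the dimmer feature, 0.48, had the opposite sign to that of the brighter one, so the features give no common direction for Mbp.

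Over the 9 genes, 7 were lower and 2 higher in No.8, with a median difference of -0.33 against 0.03 over all 18166 genes. Of all genes measured, 44.3% were lower in No.8, and of the genes past the floor 45.5%. The 7 include Mbp and Sox8, whose small differences turn sign with another feature or scaling. The other 5 genes (Olig1, Olig2, Sox10, Nkx2-2 and Cspg4) did not change sign under the alternatives tried. With levels raised to 5.67, however, the difference of Nkx2-2 was 0. For these 5 genes, only centring on the median difference, quantile normalization and a loess on mean level could have reversed the sign. All 5 stayed lower in No.8 under each of these. At 2-fold, 2 of the 8 genes past the floor differed, against 5.47% of all genes past it; by the floor-based fold it was also 2 (background 5.01%), and by the stringent fold 0 of the 6 that reached 5.67 (background 4.66%). The genes were chosen with earlier results of these data known, so these counts describe the 9 genes and support nothing beyond them. The genes whose pair of levels lay nearest to Olig2 in the plane of the 2 colonies were Sema3f (distance 0.21 log2 units; 6.36 and 4.43) and Tenm4 (distance 0.27; 6.13 and 4.08). Nearest to Cspg4 were Camk1g (distance 0.05; 6.34 and 4.58) and Tbx18 (distance 0.13; 6.37 and 4.75). With 2 colonies, nearness over 2 values is shared by many unrelated genes.

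A wider set of 127 lineage genes was examined in 6 lists, with Pdgfra in 2 of them. Of these, 117 were measured and 80 were past the floor, 16 of them in 1 colony alone (5 in No.4 and 11 in No.8). Of all 11069 genes past the floor, 309 were past it in No.4 alone and 532 in No.8 alone. Together 14 were at least 2-fold apart (17.5% of the 80, against 5.47% of all genes past the floor). Of the 14, 4 were higher in No.4 and 10 higher in No.8 (2.57% and 2.91% of all genes past the floor). In 7 of the 14, 1 colony was below the floor, a larger part than the 126 of all 606 genes at 2-fold. The 16 genes past the floor in 1 colony alone were bound to show some difference. The lists were chosen with earlier results of these data known, so these counts describe the lists and support nothing beyond them. By the stringent fold, 7 of the 14 were still 2-fold apart. These 7 stand among 58 genes of the lists that reached the limit of that fold. Over all genes that reached it, the share was 4.66% of 8161. The median difference was 0.08 over the 117 genes.

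**Figure D3:**
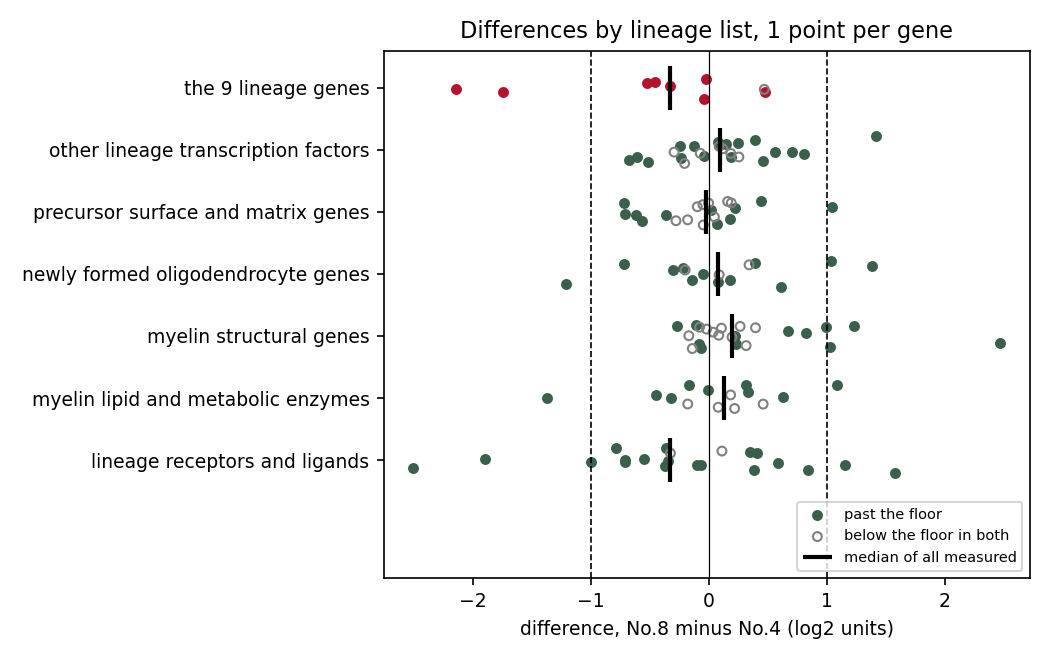
Difference between the colonies (No.8 minus No.4, log2 units, horizontal axis) for each measured gene of the 9 lineage genes and of 6 further lists; vertical scatter within a list carries no meaning. Filled points are genes past the floor, open points genes below it in both colonies, black bars the median over all measured genes, which was -0.33 for the 9 lineage genes and 0.20 for the myelin structural genes.

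Among 25 other transcription factors of the lineage, 18 were past the floor and 1 was 2-fold apart (5.56%, near the 5.47% of all genes). This was Hes1, a Notch-induced repressor that holds back differentiation, at 8.13 in No.4 against 9.55 in No.8 (2.68-fold). Zeb2, which promotes myelination, was at 8.21 and 9.02. Myrf, the factor that switches on the myelin programme in cells leaving the precursor stage, was at 5.64 and 6.36, and Klf9 at 9.05 and 8.38. The median difference of the list was 0.09, and 15 of its genes were higher in No.8 and 10 lower (11 and 7 past the floor).

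Precursor surface and matrix genes were split between bright and dim. Of 20 measured, 11 were past the floor, 6 of them in both colonies. Pdgfra, the receptor through which platelet-derived growth factor drives precursor division, was at 10.24 in No.4 against 9.53 in No.8, a difference of -0.71 (1.63-fold). Tnr, a matrix glycoprotein, was at 4.68 and 3.96, and Xylt1, an enzyme that starts glycosaminoglycan chains, at 4.75 and 4.14. C1ql1 was the list's only gene at 2-fold in the deposited values (3.44 and 4.49), 9.09% of the 11 past the floor (all genes 5.47%). It was below the floor in No.4, and its floor-based fold was at least 1.12. The list's median difference was -0.02.

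Of 15 genes of newly formed oligodendrocytes, 12 were past the floor, each in both colonies, and 3 were 2-fold apart (all genes 5.47%). Mycl, a MYC family transcription factor, was at 7.05 in No.4 against 5.84 in No.8 (2.31-fold). Cemip2, a cell surface protein linked to hyaluronan turnover, was at 5.43 and 6.81 (2.60-fold, with a stringent fold of at least 2.20). Rnf122, a ubiquitin ligase gene, was at 6.24 and 7.27 (2.05-fold). Bcas1, a marker of cells that have begun to myelinate, was at 7.94 and 7.23. The list had no common direction, with 7 genes lower and 8 higher in No.8 (6 and 6 past the floor) and a median difference of 0.08.

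Myelin structural genes were mostly dim. Of 23 measured, 12 were past the floor, 10 of them in both colonies. The median difference was 0.20, and 15 genes were higher and 8 lower in No.8, counting 11 genes below the floor in both colonies. Among the 12 past the floor, 8 were higher and 4 lower in No.8 (5890 and 5034 of all 11069 genes past the floor). The myelin-restricted genes Mag (4.05 and 3.91) and Mobp (3.79 and 3.87) were below the floor in both colonies, and Mog was at 4.48 and 4.38. The 3 genes at 2-fold (all genes 5.47%) were all higher in No.8, a direction that 2.91% of all genes past the floor took at that size. By the stringent fold it was 2 of the 7 that reached 5.67 (all genes 4.66%). Tspan2, a tetraspanin of myelinating cells, was at 3.61 in No.4 against 6.09 in No.8. Its floor-based fold was at least 3.38 and its stringent fold at least 1.33. Cryab, a small heat shock protein also made by oligodendrocytes, was at 8.58 and 9.81 (2.34-fold). Pmp22, a myelin protein of peripheral nerve with wide expression elsewhere, was at 9.14 and 10.17 (2.04-fold). Gjc3, a glial connexin, was at 4.60 and 5.60 (1.99-fold), both levels under 5.67.

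Among 14 myelin lipid and metabolic enzymes, 9 were past the floor, 8 of them in both colonies. Of the 9, 2 were 2-fold apart in the deposited values, Fa2h and Aspa (22.2%, all genes 5.47%). Fa2h, which makes the hydroxylated fatty acids of myelin galactolipids, was at 8.10 in No.4 against 6.73 in No.8 (2.58-fold). Ugt8, the enzyme that makes galactosylceramide, was at 3.61 and 3.43, below the floor in both. Aspa, the aspartoacylase of mature oligodendrocytes, was at 3.54 and 4.62, with a floor-based fold of at least 1.23. Elovl6, a fatty acid elongase, was at 8.03 and 8.66, and Plekhb1 at 9.61 and 9.17. The median difference was 0.13.

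The receptors and ligands that act on the lineage held 21 measured genes, of which 19 were past the floor and 14 in both colonies. Nrg1, which encodes neuregulin, was at 6.17 in No.4 against 3.67 in No.8, with a floor-based fold of at least 3.59 and a stringent fold of at least 1.41. Erbb3, the neuregulin receptor of glia, was at 9.66 and 8.66 and just under 2-fold (1.99). Tnfrsf21, a death receptor that restrains precursor maturation, was at 6.07 and 4.18 (floor-based fold at least 3.35, stringent fold at least 1.32). On the other side, the semaphorin receptor gene Plxnb3 was at 4.31 and 5.90 (floor-based fold at least 2.97, stringent fold at least 1.17). The potassium channel gene Kcnj10, at 4.18 and 5.33, had a floor-based fold of at least 2.01, with both levels under 5.67. Nrg1, Tnfrsf21, Plxnb3 and Kcnj10 were the 4 genes of the list at 2-fold (all genes 5.47%), and none of them reached a stringent fold of 2. The list's median difference was -0.32, with 13 genes lower and 8 higher in No.8 (12 and 7 past the floor).

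**Figure D4:**
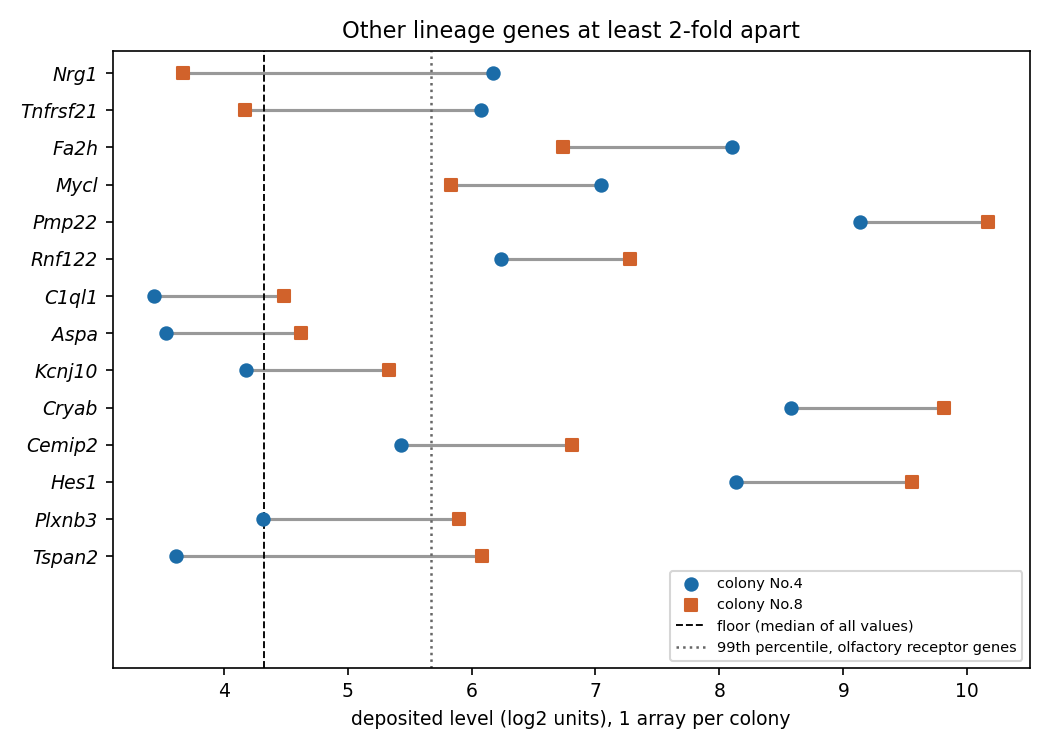
Deposited levels (log2 units, horizontal axis) of the 14 further lineage genes that were at least 2-fold apart, with circles for colony No.4 and squares for colony No.8, 1 array each. The upper 4 genes are higher in No.4 and the lower 10 higher in No.8; the dashed line is the floor of 4.33 and the dotted line 5.67, and 7 of the genes have 1 colony to the left of the dashed line.

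Markers of the lineage were set beside those of other cell types. Of 13 oligodendrocyte markers measured, which include the 9 genes, 10 were past the floor, and 7 reached 5.67 in No.4 and 4 in No.8. Olig1, Olig2 and Cspg4 reached it in No.4 alone. Of all 18166 genes, 11069 were past the floor. The level of 5.67 was reached by 7716 of all genes in No.4, 7821 in No.8 and 8161 in at least 1 colony. These totals also stand beside the counts of the other cell types. The median level of the oligodendrocyte list was 5.74 in No.4 (Sox8) against 4.89 in No.8 (Mbp). These are different genes, and the median of the 13 differences was -0.14. Of 8 astrocyte markers, 6 were past the floor, with Aldoc at 8.88 and 8.83 and S100b at 8.24 and 8.46. The connexin gene Gja1 was at 7.99 and 6.86 (2.18-fold higher in No.4). Gfap went the other way, at 4.11 and 5.17 (2.07-fold higher in No.8, floor-based fold at least 1.79), with both levels under 5.67. Aqp4 and Slc1a3 were below the floor. Slc1a2 and Fgfr3 reached the floor and stayed under 5.67.

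Of 9 Schwann cell markers, which include Sox10 and Erbb3, 7 were past the floor in both colonies and 4 reached 5.67 in each. Egr2, the factor that controls peripheral myelination, was at 9.21 in No.4 against 8.69 in No.8. The neurotrophin receptor gene Ngfr was at 7.05 and 9.32 (4.84-fold higher in No.8), in the direction opposite to Olig2 and Cspg4. Prx, the periaxin of peripheral myelin, was at 4.93 and 5.34, and Foxd3 and Gap43 also lay between the floor and 5.67. Pou3f1 and Cdh19 were below the floor in both. The median levels of this list were 5.51 and 5.34, and the median of its differences was -0.03.

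Neuronal markers were past the floor in 2 of 7 cases, Map2 (8.10 and 8.50) and Rbfox3 (4.68 and 4.76). For microglia and macrophages it was 1 of 7, Cd68, at 4.62 and 4.07. For endothelium and pericytes it was 3 of 6, Cldn5 at 4.20 and 4.38, and Rgs5 and Pdgfrb (2.10-fold) as given above. The part of other cell types in the differences of Olig2 and Cspg4 was not tested.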

How the data were processed

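Total RNA of 2 C6 colonies was measured on 1 whole-transcript GeneChip array each, after biotin labelling of sense cDNA, per the labels' protocols. The deposited table holds 36685 features with values between 1.22 and 13.34, used as log2 levels. The scale is inferred from that range; for software, background correction and normalization the steps of the authors are not stated, and no detection call was used. The platform annotation gave 18511 features exactly 1 symbol, 575 several and 17599 none, and only the first were used. The feature with the highest mean level stood for a gene. Sequences and gene order came from RefSeq (GRCr8); 6 of the 9 genes had a promoter entry, and Olig1, Sox10 and Sox8 were not used there.

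Members and lists were chosen with earlier results of these data known. Named genes were the 9 members, up to 4 genes per list with the largest differences among those past the floor, all genes at 2-fold, the neighbours in gene order (those at the extremes and beside the printed promoters are given), the nearest genes to the 2 leading members, and cell type markers; further genes named, such as Mag, Mobp, Erbb3, Ugt8 and Mog, were picked after their values were seen. Of 173 listed symbols, 160 were measured, 1 of them, Cemip2, under a newer symbol than listed. The calculation was tested on simulated data and run in Python 3.11.15 with pandas 2.3.3 and statsmodels 0.14.6. With 1 array per colony, the number of arrays limits the precision.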

Additional observations from a re-analysis of the deposited data

How the results depend on the processing

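The count of 2 lineage genes at 2-fold was also 2 under quantile normalization, centring on the median difference and a loess on mean level. It was also 2 with levels raised to the floor, a lower or higher floor, either other choice of feature, or a 1.5-fold limit. The choice of floor or feature and the 1.5-fold limit could not remove Olig2 or Cspg4. Each has 1 feature and a No.4 level past either floor. Quantile normalization, centring and the loess shift the arrays little, with Cspg4 at -1.73, -1.77 and -1.74, so they could not remove these genes either. The count was 0 with an offset of 64 on the linear scale, 0 with levels raised to 5.67 and 1 at 4-fold. The 14 further genes became 15 under centring and under quantile normalization, 12 with levels raised to the floor and 11 at the higher floor. They became 2 with the offset, 7 with levels raised to 5.67, 32 at 1.5-fold and 2 at 4-fold. The share of all genes called moved too, from 5.47% to 5.01% with levels raised to the floor and 6.35% at the higher floor. It was 1.51% with the offset, 4.66% with levels raised to 5.67, 17.8% at 1.5-fold and 0.867% at 4-fold. The median difference of the 9 genes, -0.33, became -0.18 with the offset and -0.020 with levels raised to 5.67, where the levels of Gpr17, Mbp and Nkx2-2 are all set equal. Over the 12 alternatives, Olig2 ran from -2.17 to -0.69, Cspg4 from -1.77 to -0.69, Olig1 from -0.55 to -0.23 and Sox10 from -0.36 to -0.30. Cnp ran from 0.41 to 0.50. Sox8 ran from -0.05 to 0.02, changing sign under quantile normalization, and Mbp from -0.07 to 0.48, with 0.22 for the mean of its features. No paired analysis was possible because each colony has 1 array. Without probe signals or detection calls, differences of dim genes are the least certain.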

Other observations

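The promoter windows of the other lineage genes with a RefSeq entry differed in the same motif counts. The Cnp window, whose gene was slightly higher in No.8, holds 2 CANNTG, 2 GGGCGG and 1 ACAAAG. Mbp has 2 start sites in the table: the window of the first holds 0 CANNTG, 2 GGGCGG and 1 TGACG, and that of the second holds 3 CANNTG, 2 ACAATG, 1 ACAAAG and 1 GGGCGG. The Gpr17 window holds none of the 7 motifs searched, and that of Nkx2-2 holds 1 TGACG alone. These windows are too few to set against the array values, and no relation was tested.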
